A study of Mus musculus with 163 samples.

Results

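Retinoid and xenobiotic metabolism genes were followed here through single mouse oocytes. The list held 9 symbols: the retinoid receptors Rara, Rarg, Rxra and Rxrb, the retinol and retinaldehyde oxidising enzymes Adh1, Aldh1a1 and Aldh1a2, and the P450 enzymes Cyp26b1 and Cyp1b1. A gene counted as a member where its Entrez identifier in the read count table of 21950 genes mapped to a listed symbol. This found 7 of the 9 genes, and Aldh1a2 and Rxrb were not analysed here. The genes were picked with earlier results on the same counts in view. The study's text names Rxra, Adh1, Aldh1a1 and Cyp1b1, and the others belong to the same pathways. Their levels and ratios are therefore descriptions of these libraries and carry no test.

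The study followed mouse female germ cells through culture steps that begin with stem cells and end with oocytes able to mature. RNA of single oocytes was sequenced by Smart-seq2, which copies polyadenylated transcripts of 1 cell over their full length. Growing oocytes (71 GROs) and fully grown oocytes (92 FGOs) formed 7 groups of 20 to 24 oocytes, and group totals ranged from 144958955 to 166180270 counted reads. The iPSC groups (23 GROs and 24 FGOs) came from 1 induced pluripotent stem cell line with the reporters Blimp1-Venus and Stella-ECFP, called BVSC-iPSC. Its primordial germ cell-like cells were aggregated with somatic cells of female gonads into reconstituted ovaries. The gonad groups (24 GROs and 24 FGOs) came from germ cells of E12.5 gonads that went through the same ovary culture. The 6 dpp group (24 FGOs) came from 6 dpp mice (days post partum), whose follicles entered culture only for the growth step. The in vivo groups (24 GROs and 20 FGOs) grew in the ovary. Per the study's methods, retinoic acid was part of the aggregation medium, so the iPSC and gonad groups met it in culture and the 6 dpp and in vivo groups did not. Some oocytes of the iPSC groups may also stem from gonadal germ cells left in the somatic cell preparation. The methods give the outbred Swiss Webster stock for the gonads that supplied somatic cells to the iPSC aggregates, and the strain of the gonad-derived germ cells was not used here. The origin of the germ cells and the step that made them cannot be told apart. The study also notes that cultured GROs of both sources were larger than in vivo GROs, and the sizes of single oocytes were not used here, so the part of size in the GRO comparisons was not tested. Growth culture of the iPSC groups also ran slightly longer than that of the gonad and 6 dpp groups.

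In cells, alcohol and retinol dehydrogenases oxidise retinol (vitamin A) to retinaldehyde, and retinaldehyde dehydrogenases of the ALDH1A family turn that into retinoic acid. Retinoic acid binds RAR receptors, which sit on DNA as heterodimers with RXR receptors, and enzymes of the CYP26 family degrade it. In the fetal ovary retinoic acid is known for its part in the entry of germ cells into meiosis. CYP1B1 oxidises foreign aromatic compounds as well as retinoids and steroids, and its gene is a known target of the aryl hydrocarbon receptor AHR, which senses such compounds.

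No label names an animal, embryo or culture behind an oocyte. Each group was therefore treated as 1 sample, no comparison had a replicate check, and no p-value is given. A level is given as the pooled count of a group per 1e6 reads (CPM) with an exact Poisson 95% interval in brackets. Since the libraries were amplified and carried no molecular tags, reads are not separate molecules, and such an interval holds only the error of counting. The lowest, median and highest single oocyte describe the spread. Differences are given as the log2 ratio of pooled CPM + 0.5, where the added value makes changes of low genes look smaller. A gene entered a comparison if 3 or more oocytes of the compared groups exceeded 1 CPM. Ratios were read against a 4-fold and a 2-fold size, and the bracketed interval of a ratio is an exact binomial interval of the counts without the added 0.5.

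The libraries held the RNA of oocytes. All 12 oocyte markers (such as Zp3, Gdf9 and Bmp15) had reads in every group, and their summed CPM ranged from 17923 to 57662 per oocyte. Somatic cells had been stripped from the oocytes before lysis, and the levels of markers of other ovarian cells were read as a check. The sum of 11 theca and stroma markers had a median of 3.39 to 6.31 CPM in 6 groups and of 14.9 CPM in the 6 dpp FGOs. Of the single markers, Col1a1, Col1a2 and Col3a1 were at 0 in the iPSC GROs and Pdgfra was at 0 in the gonad and in vivo GROs. The sum of 12 granulosa markers had medians of 44.1 to 50.9 CPM in the 3 GRO groups and of 84.7 to 113 CPM in the 4 FGO groups. The sum of 6 surface epithelium markers had medians of 28.8 to 65.2 CPM. The sum of 7 endothelium and blood markers had medians of 85.6 to 172 CPM, of which Pecam1 alone made up 67.0 to 149 CPM in pooled levels. In it Hbb-bs was at 0 in 6 groups, and Cdh5, Ptprc and Lyz2 were at 0 in 3, 3 and 2 groups. The library 6 dpp FGO 12 stood apart. Its theca and stroma sum was 832 CPM and its granulosa sum was 1616 CPM. Hsd3b1 was at 644 CPM and Gja1 at 1208 CPM, against medians of 8.03 and 4.00 CPM over the other oocytes of its group. Over those other oocytes the granulosa sum was mostly Cyp19a1 and Nr5a2, with medians of 72.7 and 26.9 CPM. The medians of the remaining granulosa markers, Amh, Amhr2 and Wt1 among them, were 0 to 4.00 CPM. Foxl2 and Inha were not among the 12. Values set against the granulosa sum below thus rest largely on few genes in these FGOs. Amh, Col3a1, Pdgfra and Acta2 were at 0 in that library. Of its group it had the highest value of 5 of the 11 theca and stroma markers, 6 of the 12 granulosa markers, 1 of 3 cumulus markers, 1 of 6 surface epithelium markers, and 0 of 7 endothelium and blood markers. Where leaving it out takes a member's ratio or a list count given here past a fold size, both values are given.

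Rara was the member of highest level per length in each of the 7 groups. Pooled over all oocytes, Rara stood at 4.96 CPM per kilobase of exon (RPKM), Rxra at 1.77 RPKM and Rarg at 1.12 RPKM. Among the enzymes Aldh1a1 stood at 0.517 RPKM and Cyp1b1 at 0.462 RPKM, and without 6 dpp FGO 12, a choice made after seeing the data, their order turned, to 0.390 and 0.459 RPKM. The order of the others differed in single groups. In 6 dpp FGOs Aldh1a1 (1.63 RPKM, or 0.754 without oocyte 12) and Cyp1b1 (0.621 RPKM) were above Rarg (0.456 RPKM), and in in vivo FGOs Cyp1b1 (0.728 RPKM) was above Rarg (0.544 RPKM). Reads of Rara were found in all oocytes.

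Rara (Entrez 19401, chr11:98927800-98974942, plus strand, GRCm38.p6) encodes the retinoic acid receptor alpha. Its pooled level was highest in the in vivo GROs at 34.9 CPM [34 to 35.8], where single oocytes ranged from 10.2 over a median of 30.5 to 89.6 CPM. The gonad GROs stood at 15.8 CPM [15.2 to 16.5], from 2.33 over 12.9 to 42.3 CPM, and the iPSC GROs at 18.1 CPM [17.4 to 18.7], from 5.59 over 16.1 to 38.6 CPM. Both cultured GRO groups were thus below in vivo GROs, with overlapping oocytes. The in vivo FGOs stood at 19.9 CPM [19.2 to 20.6], from 11.7 over 19.8 to 31.2 CPM. The 6 dpp FGOs stood at 12.1 CPM [11.6 to 12.7], from 5.69 over 11.5 to 22.4 CPM. Gonad FGOs and iPSC FGOs held the lowest levels, at 10.8 CPM [10.3 to 11.3] and 10.2 CPM [9.70 to 10.7], with medians of 9.46 and 9.33 CPM. Only these last groups were neighbours in the order of levels with overlapping intervals. The highest group was 3.43-fold above the lowest, and yet the ranges of single oocytes overlapped between all 21 pairs of groups.

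Rara was lower in the FGOs than in the GROs of each source, by log2 ratios of -0.80 [-0.88 to -0.75] in vivo, -0.53 [-0.64 to -0.47] for gonad-derived and -0.80 [-0.92 to -0.74] for iPSC-derived oocytes. Among GROs the gonad group was below the in vivo group by a log2 ratio of -1.11 [-1.21 to -1.07], and the gonad-derived oocyte was the higher in 15.1% of all pairs of oocytes. Among FGOs the 6 dpp group was below the in vivo group by -0.69 [-0.80 to -0.63], with 8.96% of pairs the other way, and without 6 dpp FGO 12 the ratio was -0.71. The iPSC and gonad groups were close, at 0.19 [0.11 to 0.27] among GROs and -0.08 [-0.18 to 0.01] among FGOs. Within GRO groups, Rara was lower in oocytes with a higher granulosa sum, with Pearson correlations of -0.70 in iPSC, -0.74 in gonad and -0.47 in in vivo GROs. In FGOs these were 0.15 in the iPSC, 0.06 in the gonad, 0.35 in the 6 dpp (0.34 without oocyte 12) and -0.24 in the in vivo group. With the sum of the oocyte markers the correlations were 0.76, 0.47 and 0.35 in the GRO groups in the same order, and -0.25 to 0.29 in the FGO groups. The granulosa sum was also the higher in FGOs and the oocyte marker sum the lower, and their part in the Rara ratios was not tested.

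The 250 bases before 1 of the 4 annotated starts of Rara are shown, because this window has more CpG pairs than most. It is chr11:98937446-98937695 on the plus strand of GRCm38.p6, from RefSeq, with 13 CpG pairs against a median of 6 over 32851 promoter windows of that length. In this and the other windows shown, capitals mark matches on either strand, without overlaps, of AGGTCA or AGTTCA (core elements bound by nuclear receptors) and of GCGTG (the core bound by the AHR and ARNT pair). Of all 32851 windows, 14.0% held AGGTCA, 11.8% AGTTCA and 28.2% GCGTG. The window of Rara held 1 GCGTG, at 240 to 236 bases before the start.
Rara, start 1: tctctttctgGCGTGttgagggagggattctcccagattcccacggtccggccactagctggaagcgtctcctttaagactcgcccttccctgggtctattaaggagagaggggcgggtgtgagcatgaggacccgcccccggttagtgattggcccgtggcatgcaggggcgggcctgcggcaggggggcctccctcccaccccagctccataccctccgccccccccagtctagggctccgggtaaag

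Rarg (Entrez 19411, chr15:102234938-102257522, minus strand), the gene of the retinoic acid receptor gamma, had a different order of groups. The iPSC GROs came highest at 8.10 CPM [7.67 to 8.55], with oocytes from 1.14 over a median of 6.24 to 27.6 CPM, and the gonad GROs were next at 5.57 CPM [5.21 to 5.95], from 0.886 over 5.71 to 10.8 CPM. The in vivo GROs reached 3.26 CPM [2.99 to 3.55], from 0.159 over 2.92 to 7.12 CPM. Cultured GROs were thus above in vivo GROs for Rarg, where they were below them for Rara. Gonad FGOs had 3.31 CPM [3.03 to 3.60] with a median of 3.48 CPM, and iPSC FGOs had 2.44 CPM [2.21 to 2.69] with a median of 1.83 CPM. In vivo FGOs had 1.83 CPM [1.61 to 2.06] with a median of 1.51 CPM, and 6 dpp FGOs had 1.53 CPM [1.35 to 1.74] with a median of 1.53 CPM, or 1.44 CPM pooled without 6 dpp FGO 12. The intervals of the last pair overlapped, as did those of gonad FGOs and in vivo GROs. Between the highest and the lowest group the pooled level differed 5.29-fold, with overlapping ranges of single oocytes in all pairs of groups.

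Growth was accompanied by lower Rarg in all 3 sources, with the larger difference in iPSC-derived oocytes. The log2 ratio of FGOs over GROs was -1.55 [-1.90 to -1.57] there, and the FGO was the higher in 13.6% of pairs. In vivo it was -0.69 [-1.05 to -0.62] and in gonad-derived oocytes -0.67 [-0.91 to -0.60]. Against the groups without ovary culture, gonad-derived oocytes were higher at both stages. The ratio was 0.69 [0.61 to 0.93] against in vivo GROs and 0.91 [0.89 to 1.34] against 6 dpp FGOs, or 0.97 without 6 dpp FGO 12, and the gonad-derived oocyte was higher in 79.0% and 84.0% of pairs. Some markers of the ovarian surface epithelium were also higher. Krt8 was at 1.90 and Upk3b at 1.31 against in vivo GROs, and at 1.86 (1.96 without 6 dpp FGO 12) and 1.39 against 6 dpp FGOs. Of the listed markers that passed, 2 of 4 and 2 of 3 were 2-fold higher there. Lower were 1 of 4 (Krt18 at -1.15) and 0 of 3, and the medians were 0.38 and 1.39. The pooled sum of the 6 markers differed little, at 73.8 CPM in gonad and 65.7 CPM in in vivo GROs. In gonad and 6 dpp FGOs it was 40.8 and 36.6 CPM. Of all genes, 7.04% and 2.59% were 2-fold apart in these comparisons. In growth Krt8 was at -1.85 in iPSC-derived, -2.34 in gonad-derived and -0.56 in in vivo oocytes, an order of sources unlike that of Rarg. The iPSC GROs had 3 oocytes of high Rarg, at 27.6, 22.9 and 15.9 CPM, and the median of the group was close to that of gonad GROs. These oocytes (8, 24 and 11) also had sums of 247, 142 and 127 CPM over the 6 surface epithelium markers, against a group median of 58.1 CPM. Across the 23 iPSC GROs the Pearson correlation of Rarg with that sum was 0.76, and in the other 6 groups it was -0.01 to 0.43. The sum ranged from 15.3 to 247 CPM in iPSC GROs, 23.4 to 247 CPM in gonad GROs and 6.44 to 133 CPM in in vivo GROs, and from 14.3 to 129 CPM over the FGO groups. In iPSC GROs it was mostly Krt8 (37.5 CPM pooled), Upk3b (22.5 CPM) and Lrrn4 (15.2 CPM), with Msln near 0 and Krt19 at 0. The part of such RNA in the Rarg levels and ratios was not tested.

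Rxra (Entrez 20181, chr2:27676445-27763319, plus strand) encodes the retinoid X receptor alpha, the partner of RARs and of several other nuclear receptors. It was highest in the in vivo GROs at 17.6 CPM [17.0 to 18.3], with a wide spread from 4.71 over 13.3 to 49.5 CPM. The iPSC FGOs stood at 12.6 CPM [12.1 to 13.1], from 3.93 over 9.93 to 40.9 CPM, and the iPSC GROs at 12.1 CPM [11.5 to 12.6], from 5.44 over 11.5 to 22.5 CPM. The iPSC groups therefore differed little between stages. Gonad GROs were at 8.46 CPM [8.01 to 8.93], from 4.37 over 8.56 to 13.1 CPM. The remaining FGO groups lay together, with gonad FGOs at 5.80 CPM [5.43 to 6.18], 6 dpp FGOs at 5.58 CPM [5.22 to 5.96] and in vivo FGOs at 5.23 CPM [4.86 to 5.61]. Their medians were 5.58, 5.25 and 4.70 CPM, and their intervals overlapped. The highest pooled level was 3.37-fold above the lowest, and single oocytes overlapped in range in all 21 pairs of groups.

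Rxra was lower in FGOs than in GROs in vivo, at a log2 ratio of -1.66 [-1.87 to -1.64], and the FGO was the higher in 5.00% of pairs. The same ratio was -0.51 [-0.67 to -0.42] in gonad-derived and 0.06 [-0.03 to 0.15] in iPSC-derived oocytes, where the medians differed by -0.20. This left Rxra higher in iPSC FGOs than in gonad FGOs, by 1.06 [1.01 to 1.23], with the iPSC-derived oocyte higher in 88.7% of pairs. That ratio fell under 2-fold on leaving out iPSC FGO 14 or 16, to 0.91 without the latter, which had the 40.9 CPM. Within iPSC FGOs the Pearson correlation of Rxra was 0.53 with the surface epithelium sum, -0.54 with the granulosa sum and -0.40 with the theca and stroma sum. With the surface epithelium sum it was 0.54 in in vivo FGOs, -0.57 in in vivo GROs and -0.11 to 0.23 in the other groups. In iPSC over gonad FGOs Krt8 was at 1.20 and Lrrn4 at -1.19, with a median of 0.016 over the 3 surface epithelium markers that passed. The pooled surface epithelium sum was 31.8 CPM in iPSC FGOs and 40.8 CPM in gonad FGOs. Of 9 granulosa markers that passed, 0 were 2-fold higher and 1 was lower, Gja1 at -1.87. The part of such RNA in the Rxra levels was not tested. Among GROs the gonad group was below the in vivo group by -1.01 [-1.15 to -0.96]. The medians of these last groups differed less, by a log2 ratio of -0.60, and 6 in vivo GROs had 27.2 to 49.5 CPM. These were in vivo GROs 17, 19, 20, 21, 22 and 24, whereas those numbered 1 to 16 had at most 20.2 CPM. The labels do not say what the numbers stand for. Both Rxra ratios against in vivo GROs, in growth and among GROs, rest in part on these high oocytes. Single removals do not show by how much. The difference between 6 dpp and in vivo FGOs was 0.09 [-0.05 to 0.24], and 0.10 without 6 dpp FGO 12.

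Both annotated starts of Rxra are shown for their contrast in base composition. The window before start 1, chr2:27676951-27677200 on the plus strand of GRCm38.p6, was 81.2% G and C with 40 CpG pairs and held none of the elements. The window before start 2, chr2:27709042-27709291 on the plus strand, was 55.2% G and C with 1 CpG pair and held AGGTCA at 87 to 82 bases (minus strand) and at 48 to 43 bases (plus strand) before the start. The median over all windows was 52.4% G and C.
Rxra, start 1: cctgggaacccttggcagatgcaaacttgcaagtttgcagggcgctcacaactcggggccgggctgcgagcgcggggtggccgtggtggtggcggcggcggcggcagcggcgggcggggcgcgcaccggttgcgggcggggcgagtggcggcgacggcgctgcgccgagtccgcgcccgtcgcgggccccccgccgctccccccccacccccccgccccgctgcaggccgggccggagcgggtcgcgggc
Rxra, start 2: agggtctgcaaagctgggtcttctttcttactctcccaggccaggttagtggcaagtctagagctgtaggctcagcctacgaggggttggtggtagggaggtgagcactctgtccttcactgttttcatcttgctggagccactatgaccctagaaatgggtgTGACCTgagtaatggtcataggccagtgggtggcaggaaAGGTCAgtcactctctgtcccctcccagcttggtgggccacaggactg

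**Figure D1:**
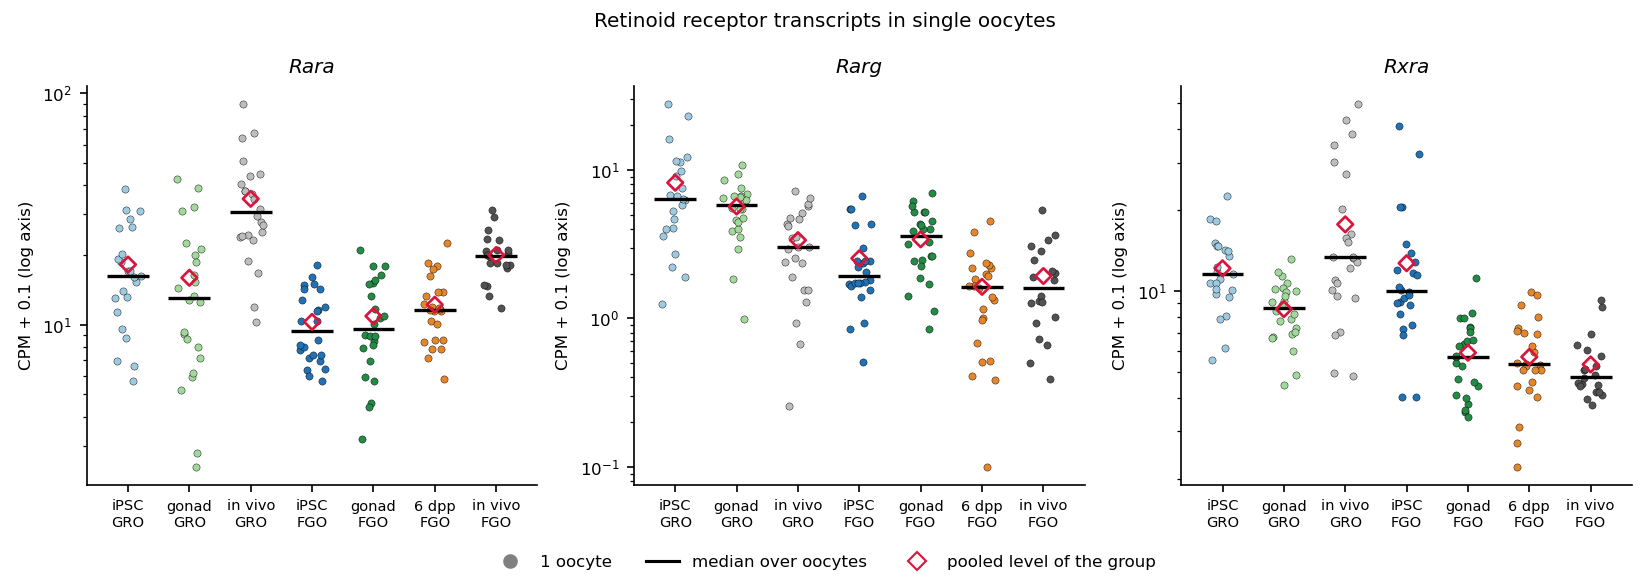
Levels of the receptor genes Rara, Rarg and Rxra in single oocytes of the 7 groups (vertical log axis, CPM + 0.1), with bars at the median over oocytes and open diamonds at the pooled level of the group. Rara and Rxra are highest in in vivo GROs (34.9 and 17.6 CPM pooled), Rarg is highest in iPSC GROs (8.10 CPM), and the groups overlap throughout.

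Relations between receptor levels of the same oocyte differed between groups. The Pearson correlation of log2(CPM + 1) between Rara and Rxra was 0.18 to 0.44 in the 7 groups of 20 to 24 oocytes. Between Rara and Rarg it was -0.12 to 0.60, highest in 6 dpp FGOs (0.57 without oocyte 12) and in vivo FGOs (0.58). Between Rarg and Rxra it was -0.54 in in vivo GROs, 0.49 in in vivo FGOs and between these values elsewhere. These values are descriptions, and the 2 genes of a pair share library and depth.

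Aldh1a1 (Entrez 11668, chr19:20492583-20643463, plus strand) encodes the retinaldehyde dehydrogenase that makes retinoic acid from retinaldehyde. Its near-identical neighbour in sequence, Aldh1a7, makes its counts uncertain, since only uniquely placed reads were counted. Aldh1a1 was low in most oocytes. The iPSC GROs had 0.657 CPM [0.539 to 0.793], from 0 over a median of 0.604 to 1.72 CPM, and the gonad GROs had 0.503 CPM [0.398 to 0.627], from 0 over 0.342 to 2.22 CPM. In vivo GROs had 1.43 CPM [1.25 to 1.62], from 0.140 over 0.751 to 8.34 CPM. The gonad FGOs with 0.647 CPM [0.529 to 0.783] and the iPSC FGOs with 0.716 CPM [0.593 to 0.857] lay at the level of the cultured GROs, and all intervals in this stretch of the order overlapped. The in vivo FGOs had 1.16 CPM [0.990 to 1.35], from 0.258 over 0.830 to 2.90 CPM. Highest were the 6 dpp FGOs with 4.17 CPM [3.86 to 4.50], from 0 over 1.10 to 57.1 CPM.

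The high pooled level of Aldh1a1 in 6 dpp FGOs came mostly from a few oocytes. Oocyte 12 had 57.1 CPM, oocyte 10 had 14.0 CPM and oocyte 3 had 6.62 CPM, and oocyte 12 alone held 55.7% of the group's Aldh1a1 reads. Without it the pooled level was 1.92 CPM [1.71 to 2.16] and the median 1.06 CPM. Reads of Aldh1a1 were present in 20 of 23 iPSC GROs, 20 of 24 gonad GROs, 24 of 24 in vivo GROs, 21 of 24 iPSC FGOs, 21 of 24 gonad FGOs, 23 of 24 6 dpp FGOs and 20 of 20 in vivo FGOs. With each library thinned to 2000000 reads the same counts were 14, 10, 17, 18, 17, 21 and 14. Detection at a matched depth was thus most frequent in 6 dpp FGOs, and the groups overlapped in range in all pairs.

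Gonad FGOs were below 6 dpp FGOs in Aldh1a1, at a log2 ratio of -2.02 [-3.0 to -2.39]. Without 6 dpp FGO 12 the ratio was -1.08 [-1.91 to -1.25], and the ratio of medians over all oocytes was -0.81, with the gonad-derived oocyte higher in 24.2% of pairs. The 6 dpp FGOs were above in vivo FGOs by 1.49 [1.6 to 2.10] with all oocytes and by 0.55 [0.45 to 1.01] without oocyte 12. The ratio of medians was 0.27 there, and the 6 dpp oocyte was the higher in 56.2% of pairs. Among GROs the gonad group was below the in vivo group by -0.94 [-1.89 to -1.13], and its medians differed by -0.57. Growth ratios were -0.22 [-0.60 to -0.01] in vivo, 0.19 [-0.07 to 0.80] in gonad-derived and 0.07 [-0.26 to 0.51] in iPSC-derived oocytes.

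Somatic markers moved with Aldh1a1 in the 6 dpp FGOs. Across these 24 oocytes the Pearson correlation of log2(CPM + 1) between Aldh1a1 and the summed theca and stroma markers was 0.87, and 0.75 without oocyte 12. It was 0.75 in in vivo FGOs, 0.60 in in vivo GROs, 0.44 in gonad FGOs, 0.29 in iPSC FGOs, -0.12 in gonad GROs and -0.24 in iPSC GROs. The theca and stroma sum ranged from 5.09 to 832 CPM in 6 dpp FGOs and from 2.20 to 41.4 CPM in in vivo FGOs. In gonad FGOs it ranged from 1.77 to 68.9 CPM, and in iPSC FGOs from 1.16 to 11.4 CPM. All 11 of these markers had reads in the 6 dpp group, and Col1a2 was at 0 in the gonad FGOs. Across 10 oocytes, at least 1 of the theca and stroma sum and the granulosa sum was over 3 times the median of its group. These were in vivo GROs 21 and 24, gonad FGO 18, 6 dpp FGOs 3, 10, 12, 14 and 23, and in vivo FGOs 16 and 19. Without these oocytes, a choice made after seeing the data, the ratio of gonad over 6 dpp FGOs was -0.48 for Aldh1a1 and -0.053 for Adh1. That of 6 dpp over in vivo FGOs was -0.050 and 0.20, so no difference of these enzymes was left at 2-fold in these FGOs. More cells of another type in a tube and more RNA per cell cannot be told apart in these counts, and the part of somatic RNA in the Aldh1a1 levels was not tested.

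Sequence before the starts of Aldh1a1 is shown since this was the member past the 4-fold size. The windows were chr19:20492333-20492582 (start 1) and chr19:20601718-20601967 (start 2), both on the plus strand of GRCm38.p6, from RefSeq. They held 3 and 1 CpG pairs, and none of the elements searched.
Aldh1a1, start 1: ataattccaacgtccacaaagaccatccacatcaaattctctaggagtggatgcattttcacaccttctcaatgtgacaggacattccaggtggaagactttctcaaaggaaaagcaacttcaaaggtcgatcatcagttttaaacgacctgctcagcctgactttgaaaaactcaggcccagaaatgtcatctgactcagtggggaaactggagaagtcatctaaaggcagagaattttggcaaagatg
Aldh1a1, start 2: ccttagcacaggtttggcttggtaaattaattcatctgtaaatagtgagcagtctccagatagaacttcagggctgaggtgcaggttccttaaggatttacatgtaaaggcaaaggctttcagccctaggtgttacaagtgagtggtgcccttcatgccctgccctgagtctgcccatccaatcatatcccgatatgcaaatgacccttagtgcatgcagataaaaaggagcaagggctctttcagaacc

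Adh1 (Entrez 11522, chr3:138277585-138290698, plus strand) encodes an alcohol dehydrogenase that also oxidises retinol. Its exons share 136 bases with the antisense gene Gm16559, and since strand use in the counting is not given in the sources used here, reads of the pair cannot be told apart. Adh1 was low in 5 groups, with 33 reads in iPSC GROs (0.201 CPM), 10 in gonad GROs (0.0637 CPM), 25 in in vivo GROs (0.154 CPM), 27 in gonad FGOs (0.166 CPM) and 12 in in vivo FGOs (0.0828 CPM). A count of 3 reads corresponds to 0.0182 to 0.0207 CPM in these groups. The iPSC FGOs had 0.981 CPM [0.836 to 1.14], from 0.129 over a median of 0.645 to 5.33 CPM. In 6 dpp FGOs the level was 0.885 CPM [0.745 to 1.04], from 0 over 0.159 to 12.8 CPM.

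These higher levels had different spreads. Adh1 reads were found in 24 of 24 iPSC FGOs, and in 18 after thinning to 2000000 reads. In 6 dpp FGOs they were found in 14 of 24, and in 8 after thinning, with 58.9% of the reads in oocyte 12. Without that oocyte the 6 dpp level was 0.379 CPM [0.288 to 0.490] from 58 reads. In the other groups 6 to 12 oocytes had reads, and 2 to 6 after thinning.

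Adh1 passed the filter in 4 of the 8 comparisons, and in each through the group where it was high. Oocytes above 1 CPM numbered 9 of the iPSC FGOs, 3 of the 6 dpp FGOs (2 without oocyte 12), 1 of the gonad FGOs, 1 of the iPSC GROs and 0 of the other groups. That it differs in these comparisons therefore follows in part from the filter, and its ratios are not read against the shares of all genes. It was higher in iPSC FGOs than in iPSC GROs by 1.08 [1.74 to 2.88], and higher than in gonad FGOs by 1.15 [1.97 to 3.21], with the iPSC-derived oocyte the higher in 83.7% and 89.1% of pairs. Leaving out iPSC FGO 14, the highest oocyte at 5.33 CPM, brought both ratios under 2-fold, to 0.91 and 0.98. Gonad FGOs were below 6 dpp FGOs by -1.06 [-3.06 to -1.81], or -0.40 [-1.91 to -0.51] without 6 dpp FGO 12, and leaving out 6 dpp FGO 23 also brought this ratio under 2-fold. The 6 dpp FGOs were above in vivo FGOs by 1.25 [2.57 to 4.40], or 0.59 [1.28 to 3.23] without it. Within 6 dpp FGOs, Adh1 and the theca and stroma sum had a Pearson correlation of 0.78, and 0.57 without oocyte 12. In iPSC FGOs, where that sum was at most 11.4 CPM, the correlation was 0.27. It was -0.17 with the granulosa sum and 0.25 with the surface epithelium sum. In growth of iPSC-derived oocytes 1 of 4 theca and stroma markers that passed was 2-fold higher, Dcn at 1.93. Of 8 granulosa markers 3 were higher, and of 3 surface epithelium markers 2 were lower. In iPSC over gonad FGOs Krt8 was at 1.20, Lrrn4 at -1.19 and Gja1 at -1.87. There 0 of 4 theca and stroma markers were 2-fold apart. The part of somatic RNA in the Adh1 levels was not tested. Aldh1a1 and Adh1 were themselves correlated at 0.80 in 6 dpp FGOs and at 0.49 without oocyte 12.

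Cyp26b1 (Entrez 232174, chr6:84571414-84593908, minus strand), whose product degrades retinoic acid, was at or near 0 in every group. The iPSC GROs and the 6 dpp FGOs had 0 reads, for which the exact interval reaches up to 0.0224 and 0.0231 CPM. The gonad GROs had 5 reads, the in vivo GROs, the iPSC FGOs and the in vivo FGOs had 2 each, and the gonad FGOs had 1. Differences of Cyp26b1 between groups were not detectable at this depth, and no ratio is given.

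Cyp1b1 (Entrez 13078, chr17:79706940-79715061, minus strand) encodes the P450 enzyme with foreign and retinoid substrates. It was highest in gonad FGOs at 4.79 CPM [4.45 to 5.13], from 0 over a median of 3.09 to 29.8 CPM. In vivo FGOs followed at 3.82 CPM [3.51 to 4.15], from 1.03 over 3.42 to 9.86 CPM, and 6 dpp FGOs at 3.26 CPM [2.98 to 3.55], from 0.971 over 2.38 to 7.15 CPM. The iPSC FGOs did not share this level. They had 1.05 CPM [0.897 to 1.21], from 0 over 0.786 to 3.21 CPM, next to gonad GROs at 1.04 CPM [0.890 to 1.22] and iPSC GROs at 1.37 CPM [1.20 to 1.56]. In vivo GROs had 1.83 CPM [1.63 to 2.05], from 0.145 over 1.55 to 5.78 CPM. Oocytes above 1 CPM numbered 21 of 24 gonad FGOs, 22 of 24 6 dpp FGOs, 20 of 20 in vivo FGOs and 10 of 24 iPSC FGOs. The highest group was 4.58-fold above the lowest, and the ranges of all groups overlapped. The first place of gonad FGOs rested on oocyte 18. Without it, a choice made after seeing the data, their pooled level was 3.56 CPM [3.27 to 3.87], in vivo FGOs were the highest group, and the range over groups was 3.66-fold.

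Growth went with higher Cyp1b1 in vivo, at a log2 ratio of 0.89 [0.86 to 1.27] and with the FGO higher in 83.1% of pairs. In gonad-derived oocytes the ratio was 1.78 [1.95 to 2.45] with the FGO higher in 83.9% of pairs. In iPSC-derived oocytes it was -0.27 [-0.68 to -0.09]. The iPSC FGOs were accordingly below gonad FGOs by -1.77 [-2.44 to -1.95], and the iPSC-derived oocyte was higher in 17.4% of pairs. Gonad FGO 18 held 29.1% of its group's Cyp1b1 reads and also had the highest theca and stroma sum of that group (68.9 CPM). Without it the growth ratio of gonad-derived oocytes was 1.39 and the ratio of iPSC over gonad FGOs was -1.39. The ratio of gonad over 6 dpp FGOs was 0.49 [0.39 to 0.72] with this oocyte and 0.11 without it, or 0.53 without 6 dpp FGO 12. Within groups, the Pearson correlation of Cyp1b1 with the granulosa sum was 0.75 in in vivo FGOs, 0.56 in gonad FGOs, 0.40 in 6 dpp FGOs (0.45 without oocyte 12), 0.31 in iPSC FGOs, 0.36 in gonad GROs, 0.23 in in vivo GROs and 0.06 in iPSC GROs. Some granulosa markers also moved with growth. Of those that passed the filter, 6 of 11 were 2-fold higher in FGOs in vivo (Gja1 at 3.88), where 23.7% of all genes were 2-fold apart. In gonad-derived oocytes 3 of 9 were higher (Gja1 at 3.26) against 15.8% of genes, and in iPSC-derived oocytes 3 of 8 (Gja1 at 1.02) against 22%. None was 2-fold lower in these growth comparisons. In iPSC over gonad FGOs 0 of 9 were higher and 1 was lower, Gja1 at -1.87, against 6.21% of genes. The part of somatic RNA in these levels and ratios was not tested. The 6 dpp level changed little without oocyte 12, to 3.17 CPM.

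The promoter window of Cyp1b1 is shown because AHR is a known regulator of this gene. It is chr17:79715062-79715311 on the minus strand of GRCm38.p6, from RefSeq, with 12 CpG pairs. It held 1 GCGTG, on the strand opposite to the gene at 76 to 72 bases before the start, which prints as CACGC.
Cyp1b1, start 1: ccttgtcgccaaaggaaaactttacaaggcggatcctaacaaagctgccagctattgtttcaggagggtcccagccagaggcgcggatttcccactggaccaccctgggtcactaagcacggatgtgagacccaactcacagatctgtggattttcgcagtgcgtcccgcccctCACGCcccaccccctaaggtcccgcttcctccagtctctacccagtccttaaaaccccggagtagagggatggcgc

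**Figure D2:**
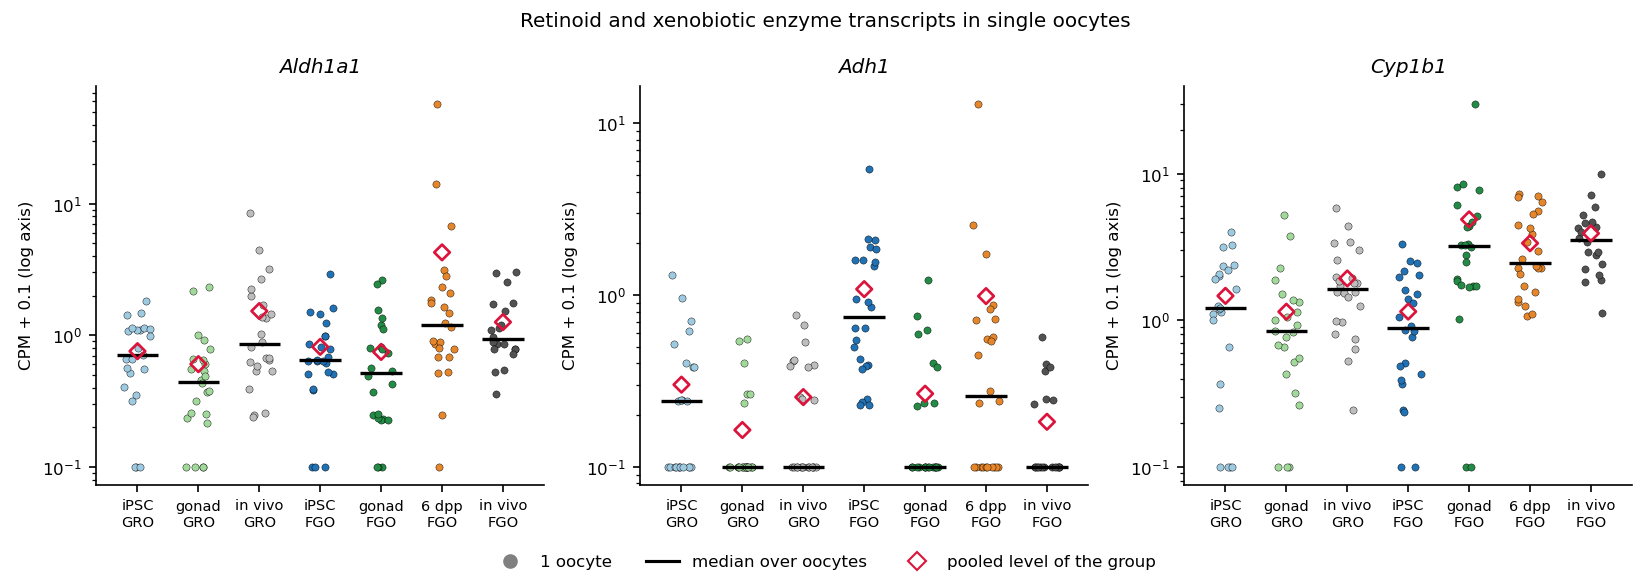
Levels of the enzyme genes Aldh1a1, Adh1 and Cyp1b1 in single oocytes of the 7 groups (vertical log axis, CPM + 0.1), with bars at the median over oocytes and open diamonds at the pooled level of the group. Oocyte 12 of the 6 dpp FGOs is the top point for Aldh1a1 (57.1 CPM) and Adh1 (12.8 CPM), and Cyp1b1 is lower in iPSC FGOs (1.05 CPM pooled) than in the other FGO groups.

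**Figure D3:**
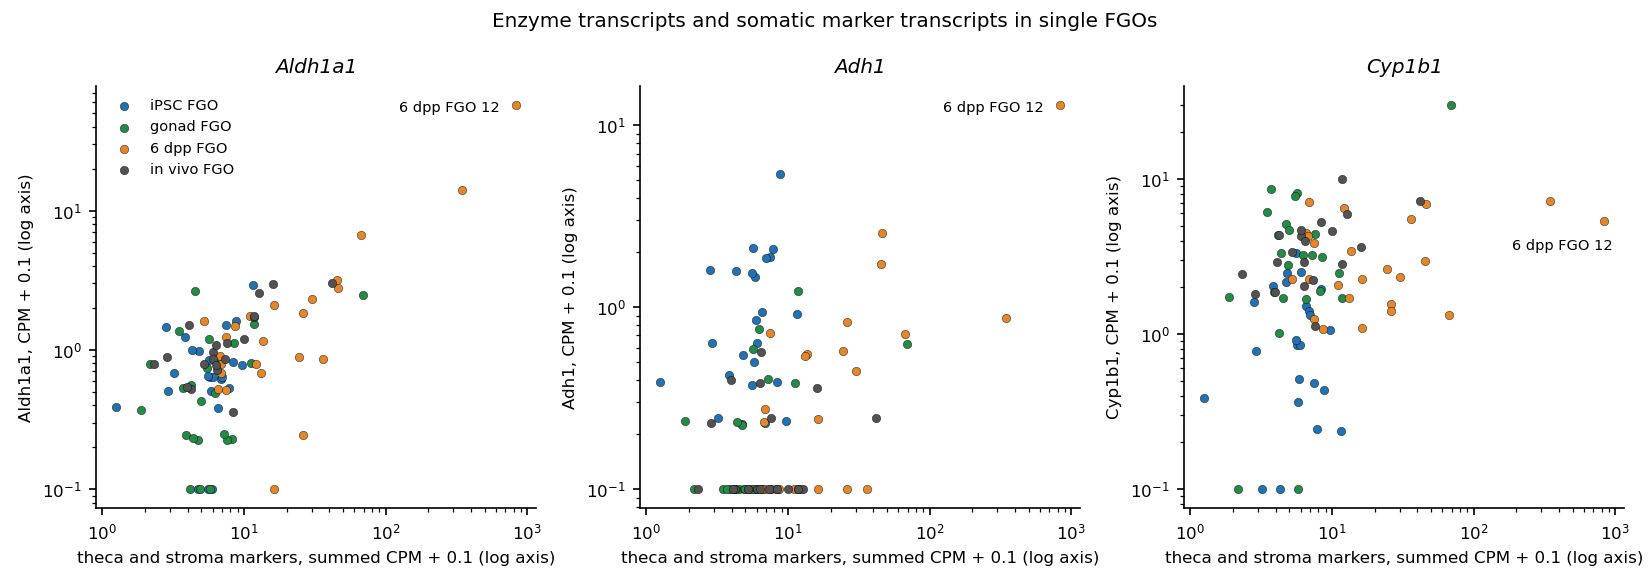
Levels of Aldh1a1, Adh1 and Cyp1b1 (vertical log axes, CPM + 0.1) against the summed theca and stroma markers (horizontal log axis, CPM + 0.1) in single FGOs, coloured by group. Oocyte 12 of the 6 dpp FGOs lies far right at 832 CPM, and Aldh1a1 is higher in 6 dpp FGOs with a higher marker sum (Pearson 0.87, and 0.75 without oocyte 12).

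Read by comparison, most differences of the members were under 2-fold. In growth in vivo, 5 members passed the filter. None was 4-fold apart, where 5.02% of 13148 genes were, and Rxra alone was 2-fold apart (lower in FGOs), where 23.7% of genes were. The Rxra ratio rests in part on the high in vivo GROs named above. The median ratio was -0.69 for the members and -0.11 for all genes. In growth of gonad-derived oocytes 0 of 5 members were 4-fold apart against 2.75% of 13068 genes, and 1 (Cyp1b1, higher) was 2-fold apart against 15.8%. The medians were -0.51 for members and -0.05 for all genes. In the 4 comparisons where Adh1 passed, the counts and medians that follow leave it out, a choice made after seeing the data. In growth of iPSC-derived oocytes 0 of 5 such members were 4-fold apart against 4.74% of 13115 genes, and Rarg (lower) was 2-fold apart against 22% of genes, with medians of -0.27 for members and -0.11 for all genes. The 1 member past 2-fold in each growth comparison was near the background share of all genes.

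The effect of making germ cells from stem cells (IVP) was read from iPSC-derived over gonad-derived oocytes. Among GROs (IVP@GRO) 0 of 5 members were 4-fold apart against 0.576% of 13029 genes, and 0 were 2-fold apart against 3.83%. The member ratios were 0.19 to 0.50, with a median of 0.27 against -0.0043 for all genes. Among FGOs (IVP@FGO) 0 of 5 members besides Adh1 were 4-fold apart against 0.714% of 12889 genes, and 2 were 2-fold apart against 6.21%, with Rxra higher and Cyp1b1 lower in iPSC-derived oocytes. Leaving out iPSC FGO 14 or 16 ended the call of Rxra and left 1, Cyp1b1.

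The ovary culture step (IVD) was read from gonad-derived over in vivo GROs and from gonad-derived over 6 dpp FGOs. Among GROs (IVD@GRO) 0 of 5 members were 4-fold apart against 0.704% of 13059 genes, and Rara and Rxra were 2-fold lower against 7.04% of genes 2-fold apart. The median of the members was -0.94 and that of all genes -0.04. Without the marker-rich in vivo GROs 21 and 24 the ratios were -0.99 and -0.87, and neither was 2-fold apart. These oocytes were themselves among the highest of their group for Rara, at 64.2 and 67.3 CPM. Smaller ratios therefore follow in part from this choice. Rxra lay at the edge, since leaving out any of 8 oocytes in turn (gonad GROs 3 and 21 and in vivo GROs 17, 19, 20, 21, 22 and 24) brought it under 2-fold, to -0.91 without in vivo GRO 19. For Rara no single oocyte did so. Among FGOs (IVD@FGO) 1 of 5 members besides Adh1, Aldh1a1, was 4-fold lower against 0.432% of 12977 genes, and no other was 2-fold apart, against 2.59% of genes. Without 6 dpp FGO 12 no member was 4-fold apart and Aldh1a1 was 2-fold apart. The 4-fold count ended on leaving out any of 12 of the 48 oocytes in turn, namely 6 dpp FGOs 3, 10 and 12 and gonad FGOs 2, 3, 6, 7, 8, 9, 14, 15 and 19, with Aldh1a1 at -1.08 to -2.14 over all single removals.

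The growth culture step (IVG) was read from 6 dpp over in vivo FGOs (IVG@FGO). Here 0 of 5 members besides Adh1 were 4-fold apart against 0.363% of 12932 genes, and Aldh1a1 was 2-fold higher against 4.38%. Without 6 dpp FGO 12 no member was 2-fold apart and 5 passed the filter. Each of the 7 groups served in 2 or 3 of the 8 comparisons, so their ratios are not independent. The Adh1 ratios of 1.08 and 1.15, for example, rest on the same iPSC FGOs. The medians over members besides Adh1 and over all genes were both -0.08 in IVP@FGO, 0.05 and 0.02 in IVD@FGO, and -0.20 and -0.04 in IVG@FGO.

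**Figure D4:**
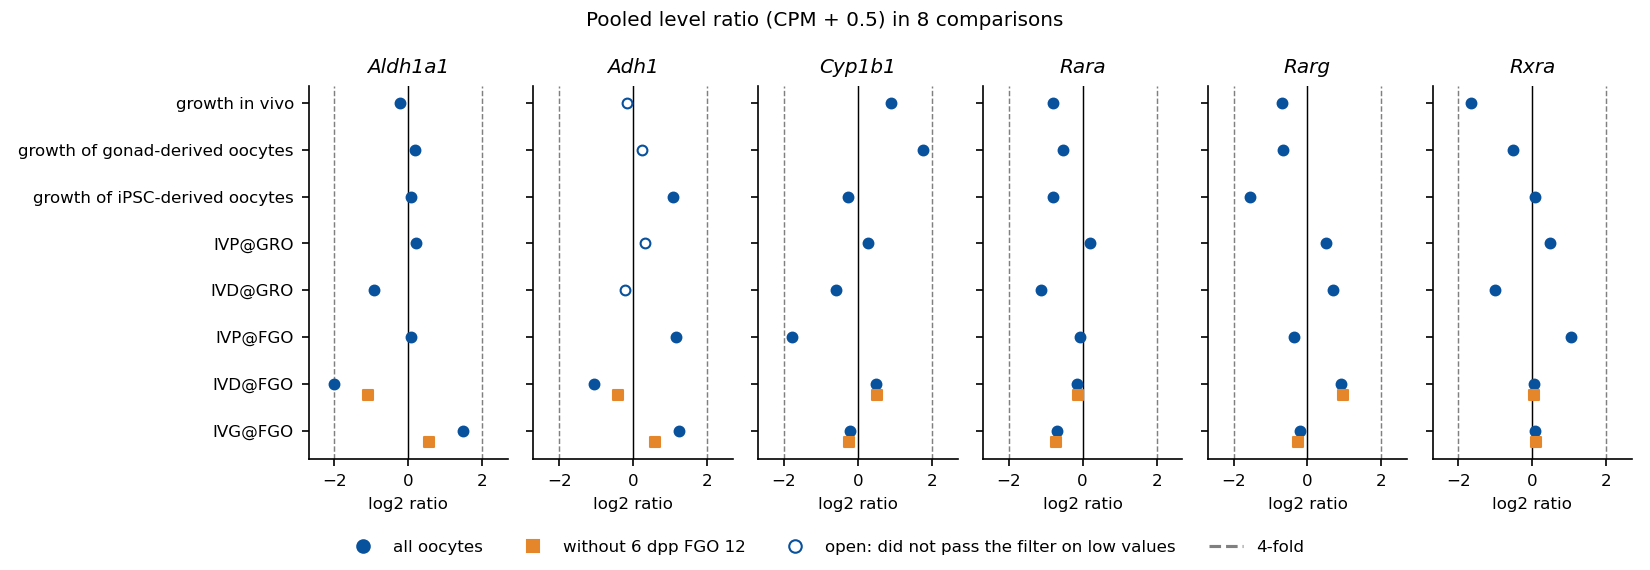
Log2 ratios of pooled CPM + 0.5 (horizontal axes) for 6 members in the 8 comparisons, with circles for all oocytes, squares without 6 dpp FGO 12, open symbols where the gene did not pass the filter and dashed lines at 4-fold. Aldh1a1 passes the 4-fold line in IVD@FGO (-2.02) and moves to -1.08 without that oocyte, while Cyp1b1 is 1.78 and -1.77 in growth of gonad-derived oocytes and IVP@FGO.

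Other genes of the pathways were taken from lists by function, and some of them also hold members. Their counts stand beside the shares of all genes given above, at 2-fold 23.7% in growth in vivo, 15.8% in growth of gonad-derived and 22% in growth of iPSC-derived oocytes. In the same order as above these shares were 3.83% (IVP@GRO), 6.21% (IVP@FGO), 7.04% (IVD@GRO), 2.59% (IVD@FGO) and 4.38% (IVG@FGO). The proteins that take up and store retinol or cleave carotene (10 of 12 listed genes) were led per length by Lpl at 11.0 RPKM, Dgat1 at 5.67, Bco1 at 2.64 and Rbp2 at 0.692 RPKM over all oocytes. Of the 5 that passed the filter in growth in vivo, 2 were 2-fold higher in FGOs and 1 was lower (23.7% of all genes were 2-fold apart), with Stra6, the retinol transporter, at 2.25. In growth of iPSC-derived oocytes Bco1, the carotene-cleaving oxygenase, was at -2.11. In IVP@GRO, IVD@GRO and IVD@FGO no gene of this list was 2-fold apart.

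The dehydrogenases and reductases between retinol and retinaldehyde (16 of 17 listed genes, Adh1 among them) included transcripts far above Adh1. Rdh11 stood at 349 RPKM, Adh5 at 237, Rdh10 at 38.2 and Rdh12 at 36.6 RPKM. Of the 10 to 13 that passed the filter, at most 2 were 2-fold apart in any of the 8 comparisons. Adh1 was among these in growth of iPSC-derived oocytes, IVP@FGO, IVD@FGO and IVG@FGO, where its place follows in part from the filter. Those counts are not read against the shares of all genes. Rdh16 was 4-fold higher in FGOs in growth in vivo, at 2.85. The median ratio of the list was between -0.35 and 0.18. Among retinaldehyde dehydrogenases (4 of 5 listed genes), Aldh1a1 was the highest at 0.517 RPKM and Aldh1a7 followed at 0.0799 RPKM, and 1 or 2 of the list passed the filter in a comparison.

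Of 6 genes for retinoic acid binding and degradation, Crabp2, a cytosolic retinoic acid binding protein, stood at 86.1 RPKM, Fabp5 at 47.3, Crabp1 at 2.37 and Cyp26c1 at 0.181 RPKM. Crabp2 was 4-fold higher and Crabp1 4-fold lower in FGOs in growth in vivo, at 2.21 and -2.38. In IVD@GRO both were 2-fold higher in gonad-derived oocytes, at 1.87 and 1.28. Pooled Crabp2 was 30.7 CPM in in vivo GROs, against 113 CPM in gonad GROs and 58.4 CPM in iPSC GROs, and 78.9 to 144 CPM in the FGO groups.

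The receptor list (5 of 6 genes) held Rarb beside the members, a receptor gene that retinoic acid is known to induce, at 1.24 RPKM. Rarb was 4-fold higher in FGOs in growth in vivo, at 2.05, where Rara, Rarg and Rxra were lower. Its pooled level was 0.735 CPM in in vivo GROs, 2.45 CPM in gonad GROs and 3.82 CPM in iPSC GROs, and 3.26 to 9.06 CPM in FGOs, with the highest level in iPSC FGOs. Of 18 genes for RXR partners and coregulators, 14 passed in each comparison. Nr1h2 led them at 49.9 RPKM, with Pparg at 43.8, Ncoa3 at 25.4 and Thra at 24.5 RPKM. Thrb was 4-fold higher in FGOs in growth in vivo, at 2.13, and no gene of this list was 4-fold apart elsewhere. Known retinoic acid target genes (8 of 10 listed) passed in 3 or 4 cases per comparison. In growth in vivo Crabp2 and Rarb were 4-fold higher, in growth of iPSC-derived oocytes both were 2-fold higher (1.12 and 1.15), and in IVD@GRO both were 2-fold higher (1.87 and 1.26). In growth of gonad-derived oocytes 0 of 3 were 2-fold apart, with a median of -0.15 and a highest ratio of 0.92. Among them Dhrs3, which reduces retinaldehyde, was 2-fold lower in IVP@FGO, at -1.05.

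Of 9 xenobiotic sensor genes, Tiparp, an AHR-induced repressor of AHR, stood at 262 RPKM, Nfe2l2 at 10.6, Arnt at 8.95 and Nr1i2 at 5.09 RPKM. Tiparp was higher in FGOs of all 3 sources, with 1393 to 1846 CPM in the 4 FGO groups against 478 to 612 CPM in the 3 GRO groups. None of the sensors was 4-fold apart in any comparison, and none was 2-fold apart in the IVP and IVD comparisons. Pooled Ahr was 16.0 CPM in iPSC FGOs and 27.0 to 34.6 CPM in the other FGO groups. A relation of Ahr to the Cyp1b1 levels was not tested. Cyp1a1, another AHR target, had 0 to 7 reads in a group.

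All 27 listed genes of phase I metabolism (oxidation and reduction) had counts, and 15 to 17 passed in a comparison. Akr1a1 stood at 274 RPKM, Aldh2 at 51.9, Cbr1 at 27.1 and Por at 24.1 RPKM, so Cyp1b1 belonged to the low genes of the list. Fmo4 was 4-fold higher in FGOs in growth in vivo, at 2.72, and Ephx2 in growth of gonad-derived oocytes, at 2.15. In IVP@FGO, Cyp1b1 had the lowest ratio of the 16 genes that passed. Of 22 genes of phase II (conjugation), Mgst3 stood at 260 RPKM, Gstm5 at 168, Gsta4 at 92.7 and Tpmt at 85.2 RPKM, and counts of glutathione transferase copies are uncertain. Ugdh, which makes the glucuronate donor, was lower in FGOs of the gonad (-3.09), iPSC (-3.60) and in vivo (-1.28) groups than in their GROs, and lower in 6 dpp than in in vivo FGOs (-2.21). Mgst1 was higher in FGOs in growth in vivo (2.23), of iPSC-derived (2.04) and of gonad-derived oocytes (1.41), and lower in gonad than in 6 dpp FGOs (-2.45), where oocyte 12 had its highest level at 168 CPM. Without that oocyte this last ratio was -1.45, under 4-fold, and the ratio of Ugdh in IVG@FGO was -2.60. Gsto2 had the largest ratios of the list. It was above 10 CPM in 21 of 24 gonad GROs, in 7 of 24 gonad FGOs and in no oocyte of another group, with medians of 54.9 and 0.147 CPM in the gonad groups. Its ratios were 6.22 in IVD@GRO, 4.89 in IVD@FGO, -6.16 in IVP@GRO and -4.75 in IVP@FGO, all set by the gonad groups. Sult4a1 was higher in gonad than in in vivo GROs, at 2.29. The 7 transporters were led by Abcb1b at 20.5 RPKM, Abcc4 at 17.4, Abcc5 at 2.27 and Abcc1 at 2.01 RPKM, and none was 4-fold apart.

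Without 6 dpp FGO 12, a choice made for these lists after seeing the data, the phase II genes had 2 higher and 1 lower at 2-fold in IVD@FGO, where all oocytes gave 2 and 3. Gstm1 moved from -1.35 to 0.18 and Gstm2 from -1.18 to -0.030. In IVG@FGO the list had 0 higher and 1 lower, where all oocytes gave 1 and 1, and Gstm1 moved from 1.78 to 0.24. Among the other lists of these pathways, the counts at 2-fold changed only through Adh1 and Aldh1a1.

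**Figure D5:**
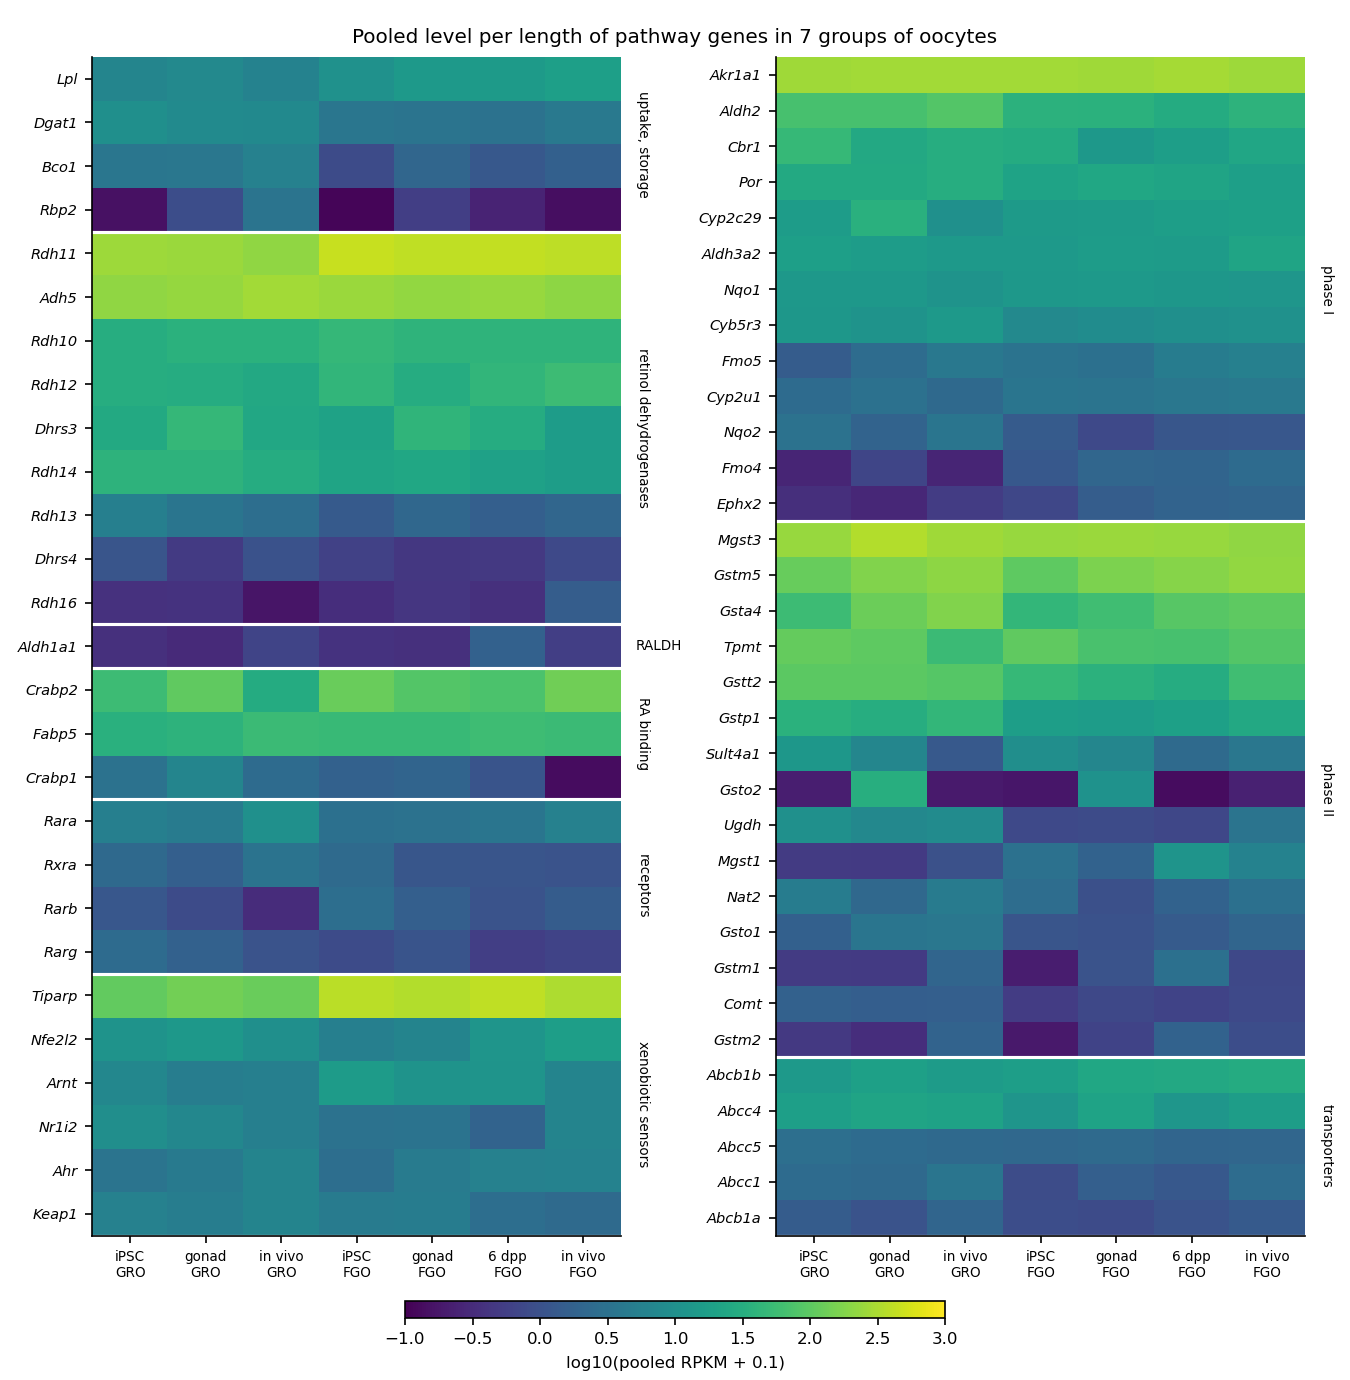
Pooled level per length, as log10(RPKM + 0.1), of 60 genes of the retinoid and xenobiotic lists that reached 1 RPKM in some group, by group of oocytes (columns) and list (blocks). Rdh11 and Tiparp are among the brightest genes at 349 and 262 RPKM over all oocytes, while Aldh1a1 and Rarg stand among the dark ones at 0.517 and 1.12 RPKM.

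Genes of like pattern were taken as the 3 of highest Pearson correlation of log2(CPM + 1) with a member over all oocytes of the 7 groups, among 13192 genes above 1 CPM in at least 10 oocytes. For Rara these were Stard10 (0.71), Shisa5 (0.69) and Agtrap (0.67). For Rarg they were Pdk1 (0.66), Myo1a (0.65) and Ceacam10 (0.64), and for Rxra they were Fbrs (0.73), Caskin2 (0.67) and Nsun5 (0.67). Cyp1b1 was most like Trpm6 (0.60), Kat14 (0.59) and Mrc1 (0.56), and the same 3 genes came out without 6 dpp FGO 12. Aldh1a1 was most like Mt3 (0.68), Cdc42ep5 (0.67) and Ddah2 (0.66), of which only Cdc42ep5 (0.56) stayed among the top 3 without that oocyte. For Rara and Rxra 2 of the 3 stayed, with Mras in place of Agtrap and Mpnd in place of Caskin2, and for Rarg all 3 did. With Spearman's rho in place of Pearson's r, 2 of the 3 genes were shared for Cyp1b1, Rara and Rarg and 0 for Aldh1a1 and Rxra. All oocytes share the stage and source differences described above, so these values describe the libraries and carry no test.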

How the data were processed

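For each oocyte the authors deposited unnormalized read counts of genes, beside an exonic length per gene. The submitters' processing notes name STAR, GRCm38 and mm10. Per the study's methods, reads were aligned to GRCm38 with spike-ins, multimapping reads got a random placement, and QuasR counted uniquely mapped exonic reads of 1 randomly chosen transcript per gene. Of 21950 identifiers, 21907 matched a RefSeq symbol. All oocytes were used, and library sizes were 2.17 to 13.7 (median 6.93) in units of 1e6 reads. From these counts, pooled CPM, RPKM, ratios and exact intervals were computed in Python 3.11.15 (numpy 2.4.6, pandas 2.3.3, scipy 1.17.1), and plots in matplotlib 3.10.9. TMM factors came from edgeR 4.0.16 and median-of-ratios size factors from DESeq2 1.42.0 (R 4.3.3), as alternatives only. The ratio step was tested on simulated data, with large changes planted only in genes of higher level and a fixed spread between oocytes. That simulation does not cover Aldh1a1, Adh1, Cyp26b1 and Cyp1b1, which lie below this level, or ratios set by single oocytes. The 5 comparisons named IVP, IVD and IVG follow steps that the study compared, and the 3 growth comparisons within a source were added here. Oocytes were not selected by size.

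Members and lists were chosen with earlier results of these data known. The text names all members, the genes of a list that were 4-fold apart, and up to 4 genes of a list by highest RPKM. It also names 3 genes of like pattern for each of Rara, Rarg, Rxra, Cyp1b1 and Aldh1a1, and none for Adh1 and Cyp26b1. Aldh1a2 and Rxrb were not analysed here. Other pseudocounts, scalings, summaries, depths, filters and left-out oocytes were tried as alternatives.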

Additional observations from a re-analysis of the deposited data

Results flagged for a closer look

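Cyp1b1 went in opposite directions in growth of gonad-derived and of iPSC-derived oocytes. The log2 ratio of FGOs over GROs was 1.78 in the gonad groups and -0.27 in the iPSC groups, a difference of 2.05. The same 4 groups give the same difference of 2.05 between the ratio of iPSC over gonad oocytes among GROs (0.27) and among FGOs (-1.77). With 1 sample per group this difference was not tested. Without gonad FGO 18, which held 29.1% of its group's Cyp1b1 reads, the growth ratio of gonad-derived oocytes was 1.39.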

How the results depend on the processing

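Of 630 alternative values of the 56 member ratios, 601 kept the sign of the reported value. A pseudocount of 0.1 or 2 CPM or pooled RPKM + 0.1 cannot turn a sign, so the 56 values of each such setting do not bear on it. The 56 ratios also include those of genes that did not pass the filter, Cyp26b1 among them. Of the 13 ratios at least 2-fold apart, 12 kept their sign in every alternative. The exception was Aldh1a1 in IVG@FGO, at -0.050 without the 10 oocytes of high granulosa or theca and stroma markers, an alternative chosen after seeing the data. That choice also takes out the 6 dpp oocytes of highest Aldh1a1. The count of members at least 4-fold apart in IVD@FGO, 1 with all oocytes, was 0 with a pseudocount of 2 CPM, with ratios of medians, with differences of mean log2(CPM + 0.5), without 6 dpp FGO 12 and without the 10 marker-rich oocytes, and 0 to 1 on leaving out each oocyte in turn. With a pseudocount of 0.1 CPM the count, Adh1 included, was 1 in growth of gonad-derived oocytes (Cyp1b1), 2 in IVP@FGO (Cyp1b1 and Adh1) and 1 in IVG@FGO (Adh1), each 0 before. With pooled RPKM + 0.1 it was 1 in IVG@FGO, again Adh1. These counts are not read against the shares of all genes, which were not taken under these settings. At a fold size of 2 the counts, Adh1 included, were 3 in IVP@FGO, 2 each in IVG@FGO, IVD@FGO, IVD@GRO and growth of iPSC-derived oocytes, and 1 each in growth in vivo and growth of gonad-derived oocytes. Beyond the size of the pseudocount, which weighs most on genes of low level, the cause of these changes was not tested. TMM and median-of-ratios scaling shift a ratio without pseudocount by 0.17 and 0.15 in growth of iPSC-derived oocytes, by 0.08 and 0.10 in IVP@FGO and by less than 0.1 elsewhere, and less where the level is low and the pseudocount weighs more. No paired analysis was possible because the replicate numbers name single oocytes and no result comes from a test. Depth limits Adh1 and Cyp26b1 most, the genes of fewest reads.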
